A study of Mus musculus with 4 samples.

Results

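The genes described here are 10 genes that extracellular signal-regulated kinase (ERK) signaling switches on, and the products of most of them dampen it. They are *Dusp4*, *Dusp5*, *Dusp6*, *Spry2*, *Spry4*, *Spred1*, *Spred2*, *Etv4*, *Etv5* and *Phlda1*, and are called feedback genes here. They were looked up by symbol, and each matched 1 row of a table of 20197 genes. RNA was sequenced from 4T1 cells, a wild-type mouse mammary carcinoma line that metastasizes from implanted tumors and models the triple negative subtype. They had taken up MitoSpy Red (20 nM), a dye whose uptake by mitochondria follows their membrane potential (MMP). Sorting took the top 5% by brightness as high MMP cells and the bottom 5% as low MMP cells, with 2 samples of each (100000 cells and 200 ng of RNA per sample). All cells came from this one line in culture and no unstained or unsorted sample is among these 4, so each result is a contrast between the tails of one dye distribution. The purpose of the comparison in the study was to relate mitochondrial activity to the gene programs of metastatic cells.

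In the ERK cascade, receptor tyrosine kinases activate RAS, which passes the signal through RAF and MEK kinases to ERK. Active ERK enters the nucleus and acts through transcription factors such as the ternary complex factors with SRF, and by relieving the repressor capicua (CIC). It thereby induces a set of genes, many of whose products dampen the cascade. Because their transcripts are short-lived and follow ERK output, several of them are used as a readout of pathway activity in tumors.

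The members fall into families. The dual-specificity phosphatases remove phosphate from ERK in different compartments: DUSP6 in the cytoplasm, DUSP5 in the nucleus and DUSP4 also in the nucleus with a wider choice of substrates. Sprouty proteins (SPRY2, SPRY4) and the related SPRED proteins (SPRED1, SPRED2) act upstream, where SPRED1 brings neurofibromin to the membrane to switch off RAS. ETV4 and ETV5 are ETS transcription factors of the PEA3 group, and PHLDA1 is a pleckstrin-homology-like protein that restrains receptor and AKT signaling.

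Promoter sequences from RefSeq (GRCm38.p6) were found for 6 of the 10 genes, at 7 start sites. Those of *Dusp5* and *Dusp6* are shown because these genes, which both encode ERK phosphatases, lay on opposite sides of the comparison below. Each run gives the 250 bases before the start, 5′ to 3′ on the strand of the gene. Capitals mark CArG boxes, the sequence that SRF binds, and the letters TGAATG or their reverse complement. These letters are a form of the core of the sites that CIC binds, and only this form is called a CIC core here. The *Dusp5* window is chr19:53528895-53529144 and the *Dusp6* window chr10:99262981-99263230, both on the plus strand.
Dusp5: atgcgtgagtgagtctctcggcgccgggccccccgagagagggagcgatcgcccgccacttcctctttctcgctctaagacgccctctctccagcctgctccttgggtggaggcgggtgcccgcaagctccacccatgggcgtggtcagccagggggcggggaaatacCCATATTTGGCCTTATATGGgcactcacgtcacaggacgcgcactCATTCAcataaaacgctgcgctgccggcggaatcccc
Dusp6: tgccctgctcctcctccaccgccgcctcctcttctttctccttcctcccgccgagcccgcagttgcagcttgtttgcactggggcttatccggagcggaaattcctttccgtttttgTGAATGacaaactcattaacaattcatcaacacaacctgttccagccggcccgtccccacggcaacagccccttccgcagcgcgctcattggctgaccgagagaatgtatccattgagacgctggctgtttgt
The *Dusp5* window held 2 CArG boxes side by side and 1 CIC core, with no overlap between them, and the *Dusp6* window held 1 CIC core and no CArG box. Among 32851 RefSeq promoter windows of this length, 1.47% held a CArG box and 10.9% a CIC core, searched on both strands. Of the other windows of these genes, the second start site of *Etv5* held 3 CIC cores. The windows of *Spry2*, *Spred1*, *Spred2* and the first start site of *Etv5* held neither motif in the forms searched. For *Spred1* and the second *Etv5* start site, the bases after the start were not found in an annotated transcript of the gene. None of the 7 windows held the longer CIC sites TGAATGAA or TGAATGGA (2.07% of all windows) or the extended ETS site CCGGAA (12%). An AP-1 site TGANTCA (6.75%) and a CRE site TGACGTCA (1.55%) were also absent from all 7. The shorter ETS core GGAA was not counted, and its letters occur in both windows shown. The variant TCAATG of the CIC core was not searched for in any window, the background included. Its reverse complement, CATTGA, occurs in the windows of *Dusp6* and *Spry2*. A match is a run of letters in the window and not a measured binding site.

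The libraries held 22591970 to 26395015 recovered reads, and each had been scaled by the authors to the same total, so that values are given as normalized reads. The epithelial markers *Krt7*, *Krt8*, *Krt18*, *Krt19*, *Epcam* and *Cdh1* were all well expressed, although *Cdh1* was lower in both high MMP libraries (3903 and 4726 against 5421 and 5426, difference -0.34, unadjusted limma p 0.0491, adjusted p 0.498), and *Ptprc*, *Pecam1* and *Cdh5*, which define leukocytes and endothelium, stayed under 10 normalized reads in every library. *Cd68* (59.9 to 149) overlapped between groups, and the leukocyte markers *Cd3e* and *Lyz2* were not in the table. Of the fibroblast markers, *Pdgfra* was lower in high MMP cells (319 and 363 against 536 and 589). Its difference was -0.72, with an unadjusted limma p of 0.0027, an adjusted limma p of 0.472 and a DESeq2 adjusted p of 0.0399. *Dcn*, *Pdgfrb* and *Col1a1* stayed under 35 in every library. Over 9999 genes averaging 100 or more, log2 differences between the high MMP replicates had an SD of 0.308 and those between the low MMP replicates 0.192, and the SD of differences between group means was 0.206. The study counts the replicates of this dataset as independent experiments, whereas the sample labels only number them. The p-values measure the spread between these samples.

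All 10 feedback genes were well covered, with 355 to 5677 reads per library, and all had a mean above 100 normalized reads. Their mean levels exceeded those of 63.5% (*Spry4*) to 95.9% (*Dusp6*) of genes in the table. To compare genes with each other, normalized reads were divided by the annotated exon length in kilobases. On this per-length scale *Dusp6* was the highest, at 1479 ± 120 normalized reads per kb (SD over the 4 libraries), followed by *Phlda1* (1105 ± 241) and *Etv4* (798 ± 74.0). *Dusp5* (571), *Dusp4* (534), *Spred2* (506), *Spry2* (462) and *Spred1* (424) formed a continuous series in which each gene's range over the 4 libraries overlapped that of the next. *Etv5* (367) lay below them and *Spry4* was the lowest at 87.8 ± 26.9, and neither range overlapped that of the gene above it. The ranges of *Dusp6* and *Phlda1* overlapped because *Phlda1* reached 1402 per kb in high MMP 2 while *Dusp6* was at 1367 in high MMP 1. Those of *Etv4* and *Dusp5* also overlapped, since *Dusp5* reached 731 per kb in high MMP 2 while *Etv4* was at 721 in high MMP 1.

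**Figure D1:**
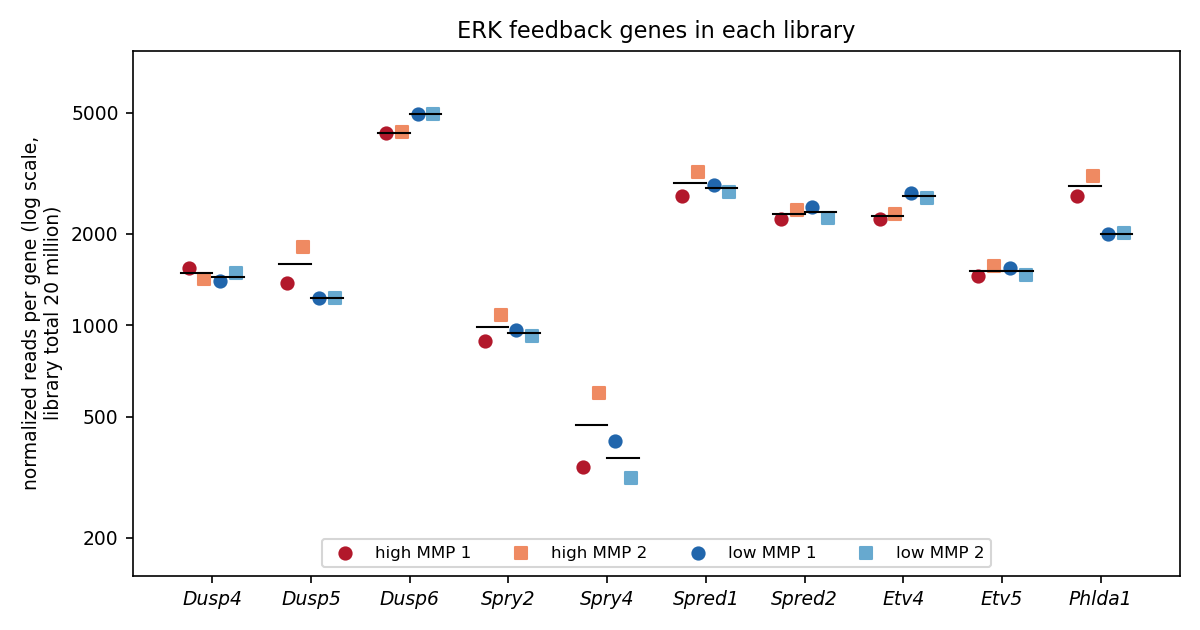
Normalized reads of each ERK feedback gene (x axis) in each of the 4 libraries (y axis, log scale), with black lines at the mean of each group of 2. *Phlda1* and *Dusp5* had both high MMP libraries above both low MMP libraries, *Dusp6* and *Etv4* the reverse, and the groups of the other 6 genes overlapped.

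Between high and low MMP cells the feedback genes stood on both sides of 0. *Phlda1* and *Dusp5* were higher in both high MMP libraries than in either low MMP library, *Dusp6* and *Etv4* were lower in both, and the other 6 genes overlapped between the groups. None of the 10 differed at an adjusted p under 0.05 in limma (0% of 20197 genes), and 2 had an unadjusted p under 0.05, *Phlda1* and *Etv4*, where 9.96% of all genes did. Groups that do not overlap were common in this table, where 13.5% of all genes had both high MMP libraries above and 24.5% had both below, so 2 and 2 of 10 is close to the background. The median log2 difference (high minus low MMP) over the 10 genes was 0.04, beside -0.04 over all genes, and was -0.07 without high MMP replicate 2. In edgeR on the recovered reads 0 of the 10 had an adjusted p under 0.05 and 2 (*Phlda1* and *Dusp5*) an unadjusted p under 0.05, against 0% and 7.05% of all genes.

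*Phlda1* showed the largest difference. It had 2654 normalized reads in high MMP 1 and 3090 in high MMP 2, against 1997 in low MMP 1 and 2009 in low MMP 2. Both high MMP libraries were well above the low MMP libraries, which were nearly equal, so the gap between groups exceeded that between replicates. On the log2 scale the difference was 0.52 (SE 0.10, 95% interval 0.23 to 0.80), a 1.43-fold higher level. Its unadjusted limma p was 0.00681 and its adjusted p 0.472, and edgeR gave an adjusted p of 0.660. The call depended on the tool, since DESeq2 on the recovered reads gave an adjusted p of 0.0295 (0.985% of the 11974 genes it adjusted were called). *Phlda1* (ENSMUSG00000020205, GRCm38 chromosome 10, 111506286 to 111508645) shares 727 exonic bases with *Gm28592* on the opposite strand, whose mean was 11.0 normalized reads. The libraries were made with a kit that keeps strand, but whether the counting used it is not stated, so it is not known whether reads from the shared part were told apart.

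None of the 3 phosphatases passed the test, and they were not tested against each other. *Dusp5*, the nuclear ERK phosphatase whose promoter window carried the paired CArG boxes shown above, had 1378 normalized reads in high MMP 1 and 1808 in high MMP 2, against 1227 in low MMP 1 and 1231 in low MMP 2. The groups did not overlap, but high MMP 1 and 2 were 0.39 apart on the log2 scale, more than the 0.36 between the group means (SE 0.15, 95% interval -0.05 to 0.78, limma adjusted p 0.568). Without high MMP replicate 2 the difference was 0.16. *Dusp5* (ENSMUSG00000034765, GRCm38 chromosome 19, 53529109 to 53542431) shares 547 exonic bases with an antisense gene at a mean of 2.10 normalized reads.

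*Dusp6*, the cytoplasmic ERK phosphatase, had 4281 normalized reads in high MMP 1 and 4331 in high MMP 2, against 4949 in low MMP 1 and 4965 in low MMP 2. Its replicates were the closest of any member in both groups, so the gap between groups was far wider than either pair. The log2 difference was -0.20 (SE 0.08, 95% interval -0.41 to 0.01), a level 0.869-fold that of low MMP cells, with an unadjusted limma p of 0.0558 and an adjusted p of 0.522. *Dusp4* had 1547 and 1418 normalized reads in high MMP 1 and 2 against 1396 and 1489 in low MMP 1 and 2, with overlap (difference 0.04, 95% interval -0.20 to 0.28, limma adjusted p 0.956). *Dusp6* (ENSMUSG00000019960) lies on GRCm38 chromosome 10, 99263231 to 99267489, and *Dusp4* (ENSMUSG00000031530) on chromosome 8, 34807297 to 34819894.

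**Figure D2:**
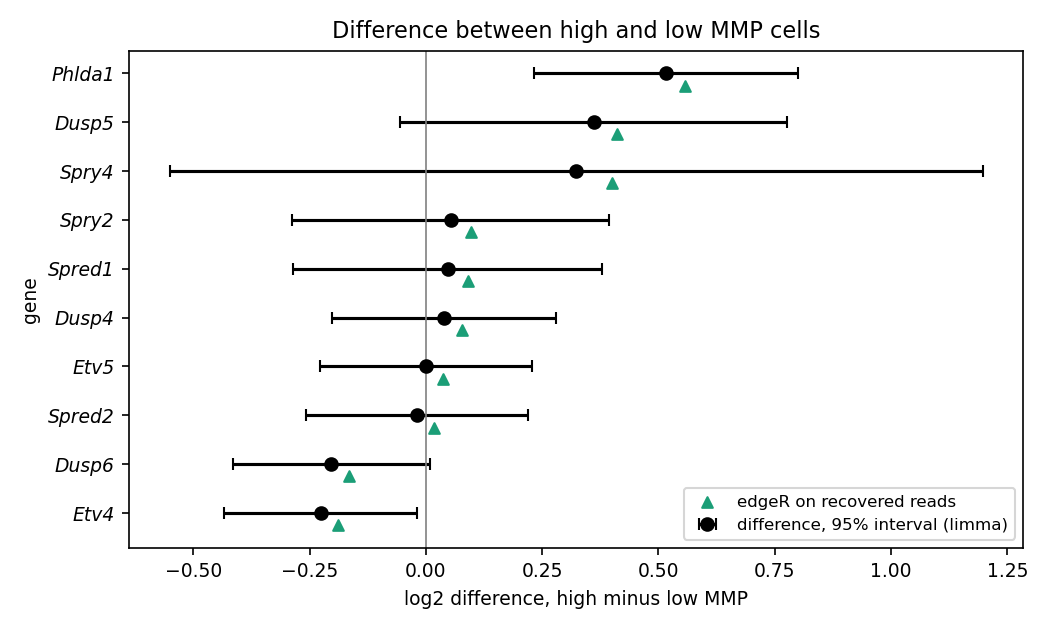
Log2 difference, high minus low MMP (x axis), for each ERK feedback gene (y axis), with black points and bars for limma estimates and their 95% intervals and green triangles for edgeR on recovered reads. The interval lay above 0 for *Phlda1* and below 0 for *Etv4*, before any adjustment over genes, and included 0 for the other 8.

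Neither PEA3 factor passed the test, and the 2 were not tested against each other. *Etv4* had 2239 and 2328 normalized reads in high MMP 1 and 2, against 2715 and 2628 in low MMP 1 and 2. Like *Dusp6*, it was lower in both high MMP libraries by more than its replicates differed, with a log2 difference of -0.23 (SE 0.08, 95% interval -0.43 to -0.02), an unadjusted limma p of 0.0385 and an adjusted p of 0.472. *Etv5* had group means of 1508 ± 79.4 and 1508 ± 55.0 (SD, n = 2 each), from 1452 and 1564 in high MMP 1 and 2 and 1547 and 1469 in low MMP 1 and 2. Its difference was 0.00 with a 95% interval of -0.23 to 0.23. *Etv4* (ENSMUSG00000017724) lies on GRCm38 chromosome 11, 101769742 to 101785371, and *Etv5* (ENSMUSG00000013089) on chromosome 16, 22381309 to 22439719.

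Among the upstream inhibitors, *Spry4* varied most. It had 342 normalized reads in high MMP 1 but 598 in high MMP 2, and 415 in low MMP 1 but 314 in low MMP 2. The groups overlapped and the high MMP libraries were 0.81 apart on the log2 scale, more than the 0.32 between the group means (SE 0.32, 95% interval -0.55 to 1.20, limma adjusted p 0.843). The sign rested on 1 library, as the difference was -0.08 without high MMP replicate 2 and 0.73 without high MMP replicate 1. It had 355 to 715 reads per library.

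*Spry2*, *Spred1* and *Spred2* overlapped between the groups. *Spry2* had 885 and 1083 normalized reads in high MMP 1 and 2 and 962 and 924 in low MMP 1 and 2 (difference 0.05, 95% interval -0.29 to 0.39). *Spred1*, the neurofibromin partner, had 2653 and 3203 against 2904 and 2741 (difference 0.05, 95% interval -0.28 to 0.38). *Spred2* had 2243 and 2396 against 2444 and 2260 (difference -0.02, 95% interval -0.26 to 0.22). Their limma adjusted p-values were 0.959, 0.964 and 0.994, and for each of these genes the replicates lay further apart than the group means. *Spry2* (ENSMUSG00000022114) lies on GRCm38 chromosome 14, 105891947 to 105896819, *Spry4* (ENSMUSG00000024427) on chromosome 18, 38586247 to 38601415, *Spred1* (ENSMUSG00000027351) on chromosome 2, 117121374 to 117182279, and *Spred2* (ENSMUSG00000045671) on chromosome 11, 19924375 to 20024026.

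A library pattern that did not follow the sort ran through several members and was not particular to them. When each gene was centred on its mean over the 4 libraries, the median over the 10 genes was 0.11 in high MMP 2, 0.03 in low MMP 1, -0.05 in low MMP 2 and -0.08 in high MMP 1, on the log2 scale. *Spry4*, *Spry2*, *Spred1* and *Etv5* each had high MMP 2 first and low MMP 1 second, and the 2 remaining libraries below them. *Dusp4* had the opposite order, with its highest values in high MMP 1 and low MMP 2. The immediate-early genes *Fos* and *Fosb*, whose products form AP-1 and which ERK also induces, had that second order with a far larger range: *Fosb* was at 4855 in high MMP 1 and 5063 in low MMP 2, against 601 in high MMP 2 and 389 in low MMP 1. Neither order follows the labelled groups or the replicate numbers. The cascade gene *Sos1* had the first order too. It was at 2105 in high MMP 2 and 2040 in low MMP 1, against 1944 in low MMP 2 and 1638 in high MMP 1. Over 12902 genes with a mean of at least 10, deviations of same-numbered libraries had a negative correlation (-0.421). The share of all genes with either order was not counted.

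By Euclidean distance between centred log2 values over the 4 libraries, the genes most like this median profile were *Pptc7* (distance 0.013), *Nfkb1* (0.013), *Hmgxb4* (0.015), *Polr3a* (0.015) and *Ints2* (0.016), out of 9989 compared genes. All 10 members were further from their own median than these were, from 0.063 for *Spred1* and *Etv5* to 0.576 for *Spry4*. With 4 libraries such a ranking is a description of these samples.

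**Figure D3:**
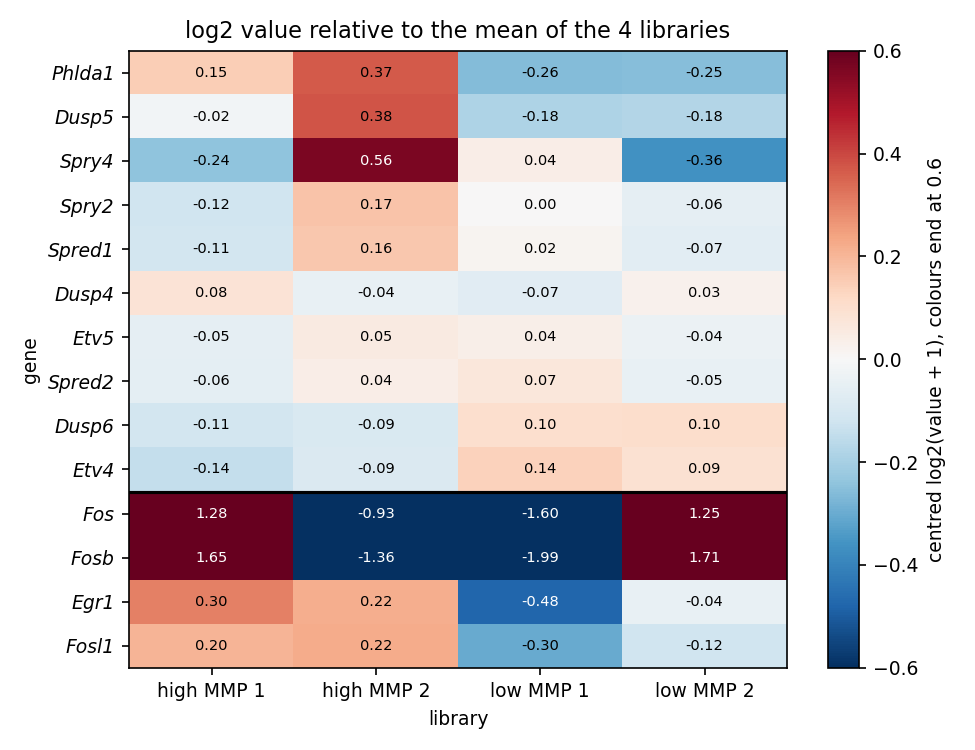
Centred log2(value + 1) of the 10 ERK feedback genes (rows above the line) and of 4 other ERK-induced genes (below it) in the 4 libraries (columns); red is above and blue below the gene's mean, and colours saturate at 0.6. *Fos* and *Fosb* were high in high MMP 1 and low MMP 2, whereas *Spry4*, *Spry2* and *Spred1* were highest in high MMP 2.

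The wider pathway was described with 3 lists. Of 30 components of the cascade, from receptors to ERK substrates, 0 passed in limma, 0 had an unadjusted p under 0.05 as higher (3.95% of all genes) and 2 as lower (6.01%), and the median log2 difference was -0.05. The kinase genes *Mapk3* (ERK1) and *Map2k1* (MEK1) differed by -0.08 (SE 0.12) and -0.04 (SE 0.08), neither past an unadjusted p of 0.05. *Elk3*, a ternary complex factor, differed by 0.11 (SE 0.08). The largest negative ones were those of the receptor genes *Erbb3* at -0.53 (SE 0.14) and *Erbb2* at -0.41 (SE 0.20). *Erbb3* had 295 and 357 normalized reads in high MMP 1 and 2 against 499 and 438 in low MMP 1 and 2, and its unadjusted limma p was 0.0194. The second gene past that level was *Cic*, which encodes the repressor of PEA3 factors and *Dusp6*, with 2304 and 2755 normalized reads in the high MMP libraries against 3291 and 3206 in the low MMP libraries (difference -0.37, SE 0.12, unadjusted limma p 0.0313). The adjusted limma p was 0.472 for both.

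Closer relatives of the members, 12 of 13 of them in the table, stood on both sides as well. None passed in limma (0 of 12), and 1 higher (*Dusp16*) and 1 lower (*Spry1*) had an unadjusted p under 0.05, against 3.95% and 6.01% of all genes. Their median log2 difference was 0.02, with 4 higher and 2 lower without overlap between groups, against 13.5% and 24.5% of all genes. *Dusp10*, *Dusp2*, *Dusp8* and *Dusp16*, phosphatases of which *Dusp8*, *Dusp10* and *Dusp16* act mainly on the stress kinases JNK and p38, were the higher ones, at 0.45 (SE 0.21), 0.35 (SE 0.21), 0.26 (SE 0.11) and 0.24 (SE 0.08). *Spred3* at -0.39 (SE 0.16) and *Spry1* at -0.35 (SE 0.08) were the lower ones. *Spry1* had 526 and 536 normalized reads in high MMP 1 and 2 against 657 and 701 in low MMP 1 and 2, with an unadjusted limma p of 0.0120 and an adjusted p of 0.472. *Dusp7*, *Dusp9*, *Dusp1*, *Etv1*, *Phlda2* and *Phlda3* overlapped between the groups, with differences from -0.19 to 0.08.

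The last list, of 22 other genes that ERK induces, stood mostly higher in high MMP cells. Its median log2 difference was 0.31. Without overlap between the groups, 12 genes were higher and 0 lower, against 13.5% and 24.5% of all genes. However, 0 passed in limma. An unadjusted p under 0.05 was seen for 2 as higher (*Fosl1* and *Egr1*) and 0 as lower, against 3.95% and 6.01% of all genes. *Fosl1*, which encodes the AP-1 subunit FRA1, had 5140 and 5202 normalized reads in high MMP 1 and 2 against 3616 and 4106 in low MMP 1 and 2 (difference 0.42, SE 0.10, adjusted p 0.472). *Egr1* had 10354 and 9783 against 6032 and 8141 (difference 0.52, SE 0.17, adjusted p 0.472). The feedback regulator of EGFR *Errfi1* and the EGF-family ligand *Hbegf* differed by 0.41 (SE 0.16) and 0.35 (SE 0.13). *Egr2* (0.79, SE 0.30) and *Egr3* (0.57, SE 0.61) had the largest differences of the list, and *Myc* (-0.26, SE 0.26) and *Mafk* (-0.08, SE 0.09) the lowest. *Ereg* had 0 reads in 2 libraries, so no difference was detectable at this depth. Whether this list differed from the feedback genes was not tested.

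**Figure D4:**
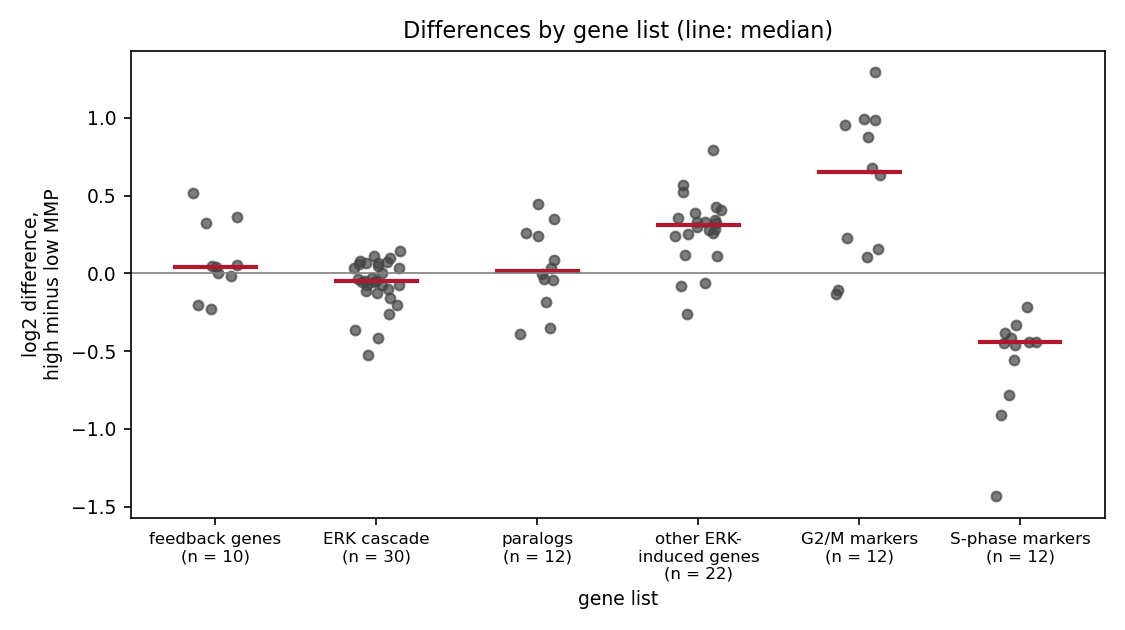
Log2 difference, high minus low MMP (y axis), of each gene (points, spread sideways for legibility) in 6 lists (x axis), with red lines at the list medians. The feedback genes (median 0.04), the cascade (-0.05) and the paralogs (0.02) centred near 0, the other ERK-induced genes lay mostly above it (0.31), and the G2/M and S-phase markers lay above (0.65) and below (-0.44).

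Cell cycle markers also moved with the groups, although 0 of them passed in limma or edgeR. DESeq2 called several, at adjusted p-values far below the 0.0295 of *Phlda1*. These were 1.5e-15 for *Ube2c*, 1.3e-09 for *Top2a* and 1.7e-09 for *Ccnb1*, all higher in high MMP cells, and 5.6e-10 for *Cdc6*, which was lower. Other markers, such as *Mki67* and *Mcm2*, were not called in DESeq2. The summed level of 12 G2/M markers was 91117 and 100041 normalized reads in the high MMP libraries against 61998 and 63964 in the low MMP libraries, with 9 of 12 higher without overlap and 1 lower. That of 12 S-phase markers was 53526 and 40614 against 63708 and 65507, with 11 of 12 lower and none higher without overlap, beside 13.5% and 24.5% of all genes in the 2 directions. The summed level of 28 immediate-early and stress genes was 87375 and 69035 in high MMP 1 and 2 against 57362 and 79484 in low MMP 1 and 2, with overlap between the groups. In that list 8 of 28 genes were higher and 2 lower without overlap, 0 passed in limma and the median log2 difference was 0.26. It shares 10 genes, *Fos*, *Fosb* and *Egr1* among them, with the 22 ERK-induced genes described above. Cells were trypsinized and sorted before lysis, according to the study's methods. The part of cell cycle, of handling or of more or less RNA per cell in the differences of *Phlda1*, *Dusp5*, *Dusp6* and *Etv4* was not tested.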

How the data were processed

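RNA-seq of 4 sorted 4T1 samples (2 high, 2 low MMP, grouped by sample title) was analysed. STAR alignment to the mouse transcriptome (GRCm38, mm10) was followed by the authors' division by library total and removal of genes seldom expressed over the samples. HTSeq is also named in the submitters' processing notes. Libraries were strand-specific (Illumina stranded mRNA kit). Versions, annotation release and use of strand in counting are not given in the sources used here. The deposited values are a normalized signal per gene with the same sum in each library. They were whole multiples of 1 step, and dividing by it gave whole reads for 100% of values (tolerance 0.01), with 22591970 to 26395015 reads per library.

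The main test was limma 3.58.1 (with a variance trend, R 4.3.3) on log2(value + 1), with Benjamini-Hochberg adjustment over all 20197 genes and a threshold of 0.05. This scale understates changes of low genes. With 2 against 2, an exact permutation test cannot go below a p of 0.333 (two-sided) and was not used. On simulated data, limma called 11 of 50 genes changed 2-fold and 45 of 50 changed 4-fold, and edgeR called 50 of 50 of each. A count of 0 in limma therefore says little about small changes. With low genes removed from the simulated table, limma also called 50 of 50 of each, with 14 false calls. In the sorted samples the smallest adjusted p of edgeR was 0.484, the value given to *Ube2c*, which was 2.45-fold higher in high MMP cells. The simulated edgeR rate therefore cannot be taken as its power in these samples. The simulation gave every gene the same fixed dispersion, so the simulated limma rates are not its power in these samples either. Recovered reads were tested with edgeR 4.0.16 (quasi-likelihood) and DESeq2 1.42.0 as alternatives. Identifiers were matched to GENCODE M21 (19993 of 20197). The table had 0 columns of no sample.

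The members, lists and rules were chosen with earlier results of these data known. All 10 members are named. From the cascade, paralog and ERK-induced lists, the paralogs, the 2 most extreme genes of each sign at a mean of at least 100 and any gene that passes the test are named, and others were chosen after their values were seen. Some cascade genes count in the list but are not reported here by name. The 5 genes closest to the median profile follow a fixed distance rule. The tested alternatives were pseudocounts of 0.5 and 5, a mean of at least 10, 2 rescalings, no variance trend, replicate blocks, edgeR, DESeq2 and leaving out each library.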

Additional observations from a re-analysis of the deposited data

How the results depend on the processing

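No member was called in limma under any of its settings, leave-one-out fits included, in which the lone sample is assumed to vary like the other group. DESeq2 called 1 (*Phlda1*, 0.56) and 118 of all genes. Over 14 alternative settings, the crossed block below not among them, *Phlda1* ranged from 0.41 to 0.63 (adjusted p 0.0295 to 0.920), *Dusp5* from 0.16 to 0.56, *Dusp6* from -0.22 to -0.16 and *Etv4* from -0.25 to -0.19, all with 1 sign. Differences near 0 changed sign with the scaling: *Etv5* was 0.0411 after median-of-ratios rescaling, 0.0163 after quantile normalization, 0.0374 in edgeR, 0.0371 in edgeR with the replicate block and 0.0412 in DESeq2, and *Spred2* was 0.02 in 4 of these (0.0216, 0.0171, 0.0176 and 0.0209), quantile normalization excepted. Leaving out each library in turn moved *Etv5* between -0.0539 and 0.0535, *Spred2* between -0.0760 and 0.0365, *Dusp4* between -0.0234 and 0.1013, *Spry2* between -0.0917 and 0.1991, *Spry4* between -0.0794 and 0.7268 and *Spred1* between -0.0887 and 0.1832. The median over the members, 0.0431, ranged from -0.0734 (without high MMP replicate 2) to 0.1184 (without high MMP replicate 1). The cause of these changes was not tested.

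Same-numbered libraries did not deviate together (correlation of deviations -0.421 over 12902 genes, which are not independent), so the replicate numbers were not taken as pairs. With the replicate block limma called 0 members and 0 genes and edgeR 0 members and 106 genes. A block with crossed numbers, chosen after seeing the data, gave 0 members and 0 genes in limma and 2 members (*Phlda1* and *Dusp5*) and 733 genes in edgeR. The lowest count of a member was 355 reads, and no setting varied depth.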
